A study of Mus musculus with 6 samples.

Results

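The genes of the NF-κB transcription factors and of proteins classed here as their inhibitors were followed in mouse γδT17 cells before and after culture. The 10 members were taken by gene symbol, with earlier results of these data known: the 5 subunit genes Nfkb1, Nfkb2, Rel, Rela and Relb, and the 5 inhibitor genes Nfkbia, Nfkbib, Nfkbid, Nfkbiz and Tnfaip3. All 10 had a row in each of the 6 tables, out of 26771 genes listed in any of them, and all 10 passed the filter on low values.

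Both groups came from spleens of C57BL/6 mice that lack the T cell receptor β chain (TCRβ-/-), in which the T cells left are of the γδ type. The Initial group held cells sorted from splenocytes and not cultured, by markers that the labels used here do not name. The Induced group held cells harvested on day 8 of a culture with IL-1β and IL-23 and purified with a magnetic T cell kit, and by the labels most of them made IL-17A. Each group had 3 libraries, 1 for each of mice A, B and C, in which order values are given below. The labels used here give no age. Sorting and culture coincide with the groups, so culture, cytokines and purification cannot be told apart.

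NF-κB is a family of dimeric transcription factors that wait in the cytoplasm, bound by IκB proteins, until a receptor activates the IκB kinases. The kinases mark IκB for destruction, and the freed dimers enter the nucleus and switch on genes of inflammation and survival, among them those of their own inhibitors. In T cells this path is driven by the antigen receptor, by TNF family receptors and by the interleukin-1 receptor. One of the inducible IκB proteins, IκBζ, is known from T helper cells for its part in the making of IL-17.

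Apart from Rel, the subunit genes changed moderately, while 4 of the 5 inhibitor genes were several-fold lower after culture. The inducible inhibitors Tnfaip3, Nfkbiz and Nfkbid stood at 4.16%, 4.11% and 8.08% of their Initial level, Rel at 9.78% and Nfkbia at 26.3%. The other 5 members lay between 57.9% (Relb) and 117% (Nfkb1) of their Initial level. By limma on log2(FPKM + 1), with a call at an adjusted p under 0.05 over all 11265 genes tested, 9 of the 10 members fell and Nfkb1 rose, though scaling the libraries on T cell identity genes turned the direction of Nfkb2, Rela, Relb and Nfkbib. Calls were common in this comparison: 70.4% of all genes tested were called, 37.3% as higher and 33.1% as lower. With calls this common, a call says little about a member, and sizes are given for each. The median log2 fold change (LFC, on the log2(FPKM + 1) scale) was -0.58 over the 5 subunit genes and -3.48 over the 5 inhibitor genes, beside 0.03 over all genes tested. In bulk RNA, fewer cells of a type and less RNA per cell cannot be told apart.

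**Figure D1:**
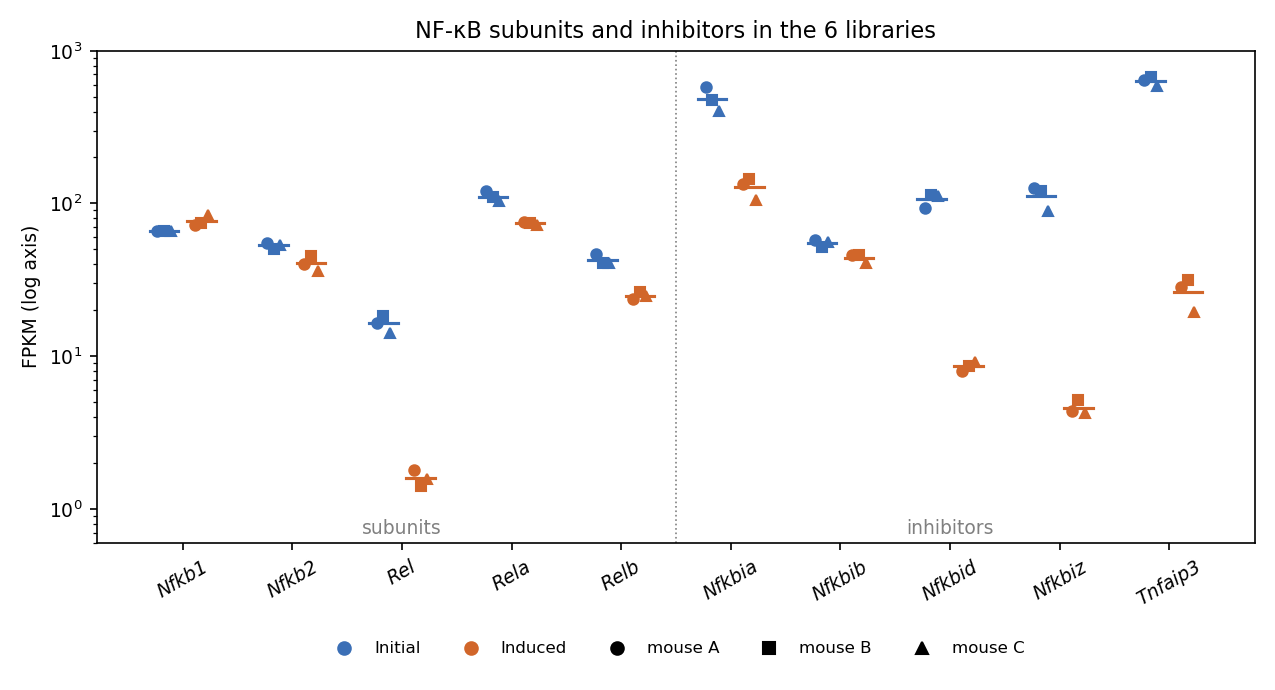
FPKM (log axis) of the 10 members in each library, with Initial libraries in blue and Induced libraries in orange, a marker shape for each mouse and a line at the group mean. Tnfaip3, Nfkbiz, Nfkbid and Rel are separated by about an order of magnitude or more between the groups, while Nfkb1 is slightly higher in the Induced libraries.

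The promoters are shown because several of these genes are known targets of NF-κB itself. RefSeq promoters (build GRCm38.p6, 250 bases before to 50 after a start site) were found for 7 members, all but Nfkb1, Relb and Nfkbiz. Each was searched on both strands for the κB consensus motif and for GGNNTTTCC, a motif that can overlap it, and letters in either match are in capitals. Where a member has several promoters, the one with the most matches is shown.
Tnfaip3 (chr10:19015361-19015660, minus strand): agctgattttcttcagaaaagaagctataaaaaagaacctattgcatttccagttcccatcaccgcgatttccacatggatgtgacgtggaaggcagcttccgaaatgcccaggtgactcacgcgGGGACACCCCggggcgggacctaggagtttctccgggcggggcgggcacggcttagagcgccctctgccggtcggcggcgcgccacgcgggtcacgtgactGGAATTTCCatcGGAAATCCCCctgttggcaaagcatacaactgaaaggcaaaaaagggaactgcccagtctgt
Nfkbid (chr7:30422156-30422455, plus strand): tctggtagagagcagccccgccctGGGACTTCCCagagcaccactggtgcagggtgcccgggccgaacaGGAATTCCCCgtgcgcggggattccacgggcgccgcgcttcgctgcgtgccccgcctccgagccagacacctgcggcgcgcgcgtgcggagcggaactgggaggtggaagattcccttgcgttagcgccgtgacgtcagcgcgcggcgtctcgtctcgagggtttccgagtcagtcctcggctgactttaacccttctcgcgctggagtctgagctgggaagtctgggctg
Rel (chr11:23770920-23771219, minus strand): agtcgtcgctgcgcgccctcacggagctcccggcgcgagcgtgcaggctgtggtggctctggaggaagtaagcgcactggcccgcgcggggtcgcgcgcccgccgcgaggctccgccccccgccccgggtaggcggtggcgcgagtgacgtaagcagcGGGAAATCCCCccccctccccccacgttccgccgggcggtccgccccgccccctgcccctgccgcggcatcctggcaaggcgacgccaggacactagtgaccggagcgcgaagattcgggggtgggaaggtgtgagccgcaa
Nfkbia (chr12:55492598-55492897, minus strand): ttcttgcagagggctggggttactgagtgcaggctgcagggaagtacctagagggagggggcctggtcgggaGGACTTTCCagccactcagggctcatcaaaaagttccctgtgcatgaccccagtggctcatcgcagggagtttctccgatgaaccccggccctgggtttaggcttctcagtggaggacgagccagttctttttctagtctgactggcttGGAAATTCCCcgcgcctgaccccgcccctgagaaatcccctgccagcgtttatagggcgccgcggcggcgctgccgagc
Nfkb2 (chr19:46304487-46304786, plus strand): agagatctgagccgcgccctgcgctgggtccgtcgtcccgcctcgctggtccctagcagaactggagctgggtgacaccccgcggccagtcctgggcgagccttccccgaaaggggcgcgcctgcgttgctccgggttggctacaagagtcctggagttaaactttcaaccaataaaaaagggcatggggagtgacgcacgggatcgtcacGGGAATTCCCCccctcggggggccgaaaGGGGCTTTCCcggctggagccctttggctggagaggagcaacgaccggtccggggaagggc
Rela (chr19:5637291-5637590, plus strand): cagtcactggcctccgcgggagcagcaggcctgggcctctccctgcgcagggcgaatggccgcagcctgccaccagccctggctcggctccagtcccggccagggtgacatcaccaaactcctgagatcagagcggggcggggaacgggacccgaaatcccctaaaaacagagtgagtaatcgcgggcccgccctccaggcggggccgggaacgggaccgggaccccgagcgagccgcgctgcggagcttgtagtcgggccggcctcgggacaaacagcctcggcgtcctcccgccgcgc
Nfkbib (chr7:28766595-28766894, minus strand): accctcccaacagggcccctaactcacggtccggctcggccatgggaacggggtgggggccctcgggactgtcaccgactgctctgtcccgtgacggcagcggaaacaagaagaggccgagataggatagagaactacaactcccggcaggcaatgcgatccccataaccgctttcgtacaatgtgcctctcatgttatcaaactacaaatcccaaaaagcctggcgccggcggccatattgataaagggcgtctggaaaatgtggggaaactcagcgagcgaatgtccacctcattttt
In Tnfaip3 the capitals mark 3 stretches, in Nfkbia, in Nfkbid and in Nfkb2 2 each, and in Rel 1. The 2 stretches of Nfkbia begin 178 and 29 bases before the start site. Rela and Nfkbib had no match in their windows, and Nfkb2 had matches in all 3 of its promoters. Of these, chr19:46305445-46305744 and chr19:46305680-46305979 overlap and share a matched stretch, the only one in the latter. The other promoters of Nfkbid (chr7:30421481-30421780 and chr7:30423025-30423324) and of Tnfaip3 (chr10:19011914-19012213) had no match. A match was found for 5 of the 7 members with a promoter, and in 7 of 12 member promoters. The shared stretch of Nfkb2 counts in both of its windows there. Over all RefSeq promoters of this length, 12.8% of 32851 held a match of either motif, as did 14.4% of 27025 genes in at least 1 promoter. These matches describe letters in the window, and no binding was measured. Known targets were among the members, so their share of matches is no test against all promoters. Whether matches go with the size of a fall was not tested.

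Among the subunits, Rel had the largest change. Rel encodes c-Rel, the subunit tied most closely to lymphocyte activation, and lies on chromosome 11 (23736847 to 23770970, GRCm38, minus strand). Its level was 16.4, 18.5 and 14.2 FPKM in the Initial libraries and 1.81, 1.42 and 1.58 FPKM in the Induced libraries. Every Induced library lay far below every Initial library. The mean went from 16.4 ± 2.13 to 1.60 ± 0.197 FPKM (SD, n = 3), an LFC of -2.73 (SE 0.12, adjusted p = 6.2e-07). Only 2.97% of genes tested had a change as low or lower. By the rough depth estimate, 237 to 286 fragments stood behind the Induced values, a counting error of 5.91 to 6.5%, so the remaining level was well above a floor of 0. With a pseudocount of 5 in place of 1 the LFC shrank to -1.69, and with 0.1 it grew to -3.27.

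Rela and Relb, which encode the partners with transactivation domains of the classical and the alternative path, fell moderately in the values as deposited, but not after scaling on T cell identity genes (LFC 0.37 and 0.17). Rela (chromosome 19, 5637483 to 5648130, plus strand) had 120, 110 and 103 FPKM in Initial and 75.6, 74.3 and 72.0 FPKM in Induced libraries. The means were 111 ± 8.51 and 74.0 ± 1.85 FPKM, an LFC of -0.58 (SE 0.07, adjusted p = 1.7e-04). The Induced values were close together and all under the Initial ones. Relb (chromosome 7, 19606217 to 19629438, minus strand) had 46.7, 40.9 and 40.9 FPKM in Initial and 23.6, 26.2 and 24.6 FPKM in Induced libraries. Its LFC was -0.76 (SE 0.08, adjusted p = 5.9e-05), again with no overlap. Changes of this size were ordinary here, since 17.3% of genes tested were as low as Relb or lower and 21.8% as low as Rela or lower.

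Nfkb1 and Nfkb2 encode the precursors that are trimmed to the DNA-binding partners of Rela and Relb, and that act as inhibitors before trimming. They moved in opposite directions, except after that scaling, where both were higher (LFC 1.16 and 0.55). Nfkb1 (chromosome 3, 135584655 to 135691547, minus strand) had 65.6, 66.2 and 65.9 FPKM in Initial and 71.9, 74.5 and 84.0 FPKM in Induced libraries. The groups did not overlap. The coefficient of variation was 0.494% before culture and 8.25% after it. By the rough depth estimate, the Initial spread lay under the counting error of 1.27 to 1.41%, so the 2 spreads are not compared. The LFC of Nfkb1 was 0.21 (SE 0.07, adjusted p = 0.0277). The call was lost when any library other than Induced A was left out, with adjusted p-values of 0.0508 to 0.0693. It was also lost without the filter (adjusted p = 0.0501) and after quantile normalization (adjusted p = 0.0624). Nfkb1 overlaps Gm43430 on the same strand, which had 1.65 ± 0.903 FPKM before and 0.527 ± 0.174 FPKM after culture, and their fragments cannot be fully told apart. Nfkb2 (chromosome 19, 46304320 to 46312385, plus strand) had 55.5, 50.3 and 53.5 FPKM in Initial and 39.9, 45.3 and 36.2 FPKM in Induced libraries. All 3 Induced values were lower, and the LFC was -0.39 (SE 0.09, adjusted p = 0.00538). The authors' locus for Nfkb2 takes in Psd. Without strand, fragments of Nfkb2 cannot be told from those of Psd, which overlaps it on the other strand, and Psd had 0.401 ± 0.0604 and 0.106 ± 0.0811 FPKM.

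Of the inhibitors, Tnfaip3 had the largest fall by LFC. It encodes A20, an enzyme that edits ubiquitin chains and shuts off signalling from TNF and interleukin-1 receptors, and lies on chromosome 10 (19000910 to 19015657, minus strand). Its level was 641, 673 and 587 FPKM in the Initial libraries and 28.3, 31.5 and 19.3 FPKM in the Induced libraries. Before culture it was among the most abundant messages, above 99.4% of genes tested. The mean went from 633 ± 43.4 to 26.4 ± 6.29 FPKM, an LFC of -4.56 (SE 0.17, adjusted p = 3.7e-07). Only 0.63% of genes tested were as low or lower. In each mouse the Induced level was 3.30 to 4.68% of the Initial one.

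Nfkbiz and Nfkbid encode the nuclear IκB proteins IκBζ and IκBNS, which are made on demand and act on chosen target genes in the nucleus. Nfkbiz (chromosome 16, 55811375 to 55838899, minus strand) had 126, 120 and 89.2 FPKM in Initial and 4.38, 5.16 and 4.23 FPKM in Induced libraries. The mean fell 24.3-fold, with an LFC of -4.32 (SE 0.14, adjusted p = 1.6e-07). Initial C was the lowest of its group and still far above the Induced libraries. Nfkbid (chromosome 7, 30421732 to 30428746, plus strand) had 93.4, 114 and 112 FPKM in Initial and 7.99, 8.65 and 9.17 FPKM in Induced libraries. Its mean went from 107 ± 11.4 to 8.61 ± 0.590 FPKM, an LFC of -3.48 (SE 0.09, adjusted p = 7.9e-08). Over all genes tested, 2.52% had an LFC of -3.0 or lower, and these 3 inhibitors were among them.

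Nfkbia and Nfkbib encode IκBα and IκBβ, the inhibitors that hold dimers in the cytoplasm. Nfkbia (chromosome 12, 55489410 to 55492647, minus strand) had 579, 472 and 406 FPKM in Initial and 134, 145 and 105 FPKM in Induced libraries. It fell 3.80-fold, from 486 ± 87.5 to 128 ± 20.6 FPKM (LFC -1.92, SE 0.16, adjusted p = 2.4e-05), and was still above 94.4% of genes tested. Nfkbib (chromosome 7, 28758251 to 28767512, minus strand) had 57.5, 51.5 and 56.1 FPKM in Initial and 45.9, 45.7 and 40.5 FPKM in Induced libraries. Its LFC of -0.32 (SE 0.08, adjusted p = 0.00629) was the smallest fall among the members, and it turned to 0.63 after scaling on T cell identity genes. Nfkbib overlaps Sirt2 on the other strand, which had 45.9 ± 2.26 and 50.8 ± 5.55 FPKM and did not pass the test (adjusted p = 0.195), and the authors' locus spans both, so the level of Nfkbib is uncertain.

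The order of the levels, per length of transcript, was rearranged. Before culture Tnfaip3 was highest and Nfkbia next, without overlap, and they were followed by Nfkbiz, Rela and Nfkbid, whose values overlapped. Then came Nfkb1, Nfkbib with Nfkb2 (which overlapped), Relb and Rel. After culture Nfkbia was highest, followed by Nfkb1 and Rela, which overlapped, and by Nfkbib and Nfkb2, which overlapped as well. Tnfaip3 and Relb overlapped below them, and Nfkbid, Nfkbiz and Rel were at the bottom. Tnfaip3 made up 45.6 ± 2.41% of the summed FPKM of the 5 inhibitor genes before culture and 12.3 ± 1.32% after it, and the share of Nfkbia went from 34.7 ± 3.46 to 60.3 ± 1.31%. Among the subunits, the share of Nfkb1 went from 22.8 ± 1.14 to 35.3 ± 2.75% and that of Rel from 5.65 ± 0.715 to 0.736 ± 0.106%.

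Ratios between members within a library do not depend on how libraries are scaled to each other. The summed FPKM of the 5 inhibitor genes was 4.92, 5.01 and 4.5 times that of the 5 subunit genes in the Initial libraries and 1.04, 1.06 and 0.816 times in the Induced libraries. The sum of the subunit genes itself was 289 ± 13.7 FPKM before and 218 ± 4.48 FPKM after culture. That of the inhibitor genes was 1390 ± 127 and 211 ± 29.8 FPKM. The latter sum includes the nuclear IκB genes, whose proteins act on chosen target genes. The ratio of the sums is thus no measure of how far NF-κB is held back. Nfkbia went from 4.35 ± 0.448 to 1.73 ± 0.247 times Rela. The cytoplasmic inhibitors Nfkbia and Nfkbib together were 2.48 ± 0.371 times the nuclear ones, Nfkbid and Nfkbiz, before culture and 13.1 ± 1.95 times after it.

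The ratios among subunits moved as well, with Nfkb2 lower relative to Nfkb1 and Relb relative to Rela. Nfkb2 was 0.846, 0.759 and 0.811 times Nfkb1 in Initial and 0.555, 0.608 and 0.431 times in Induced libraries. Relb went from 0.386 ± 0.0113 to 0.335 ± 0.0211 times Rela, a small shift in which Initial B (0.373) and Induced B (0.352) came close. Rel went from 0.147 ± 0.0182 to 0.0216 ± 0.00243 times Rela. In all 7 ratios compared the groups did not overlap, as was the case for all 10 members and for 75.4% of the genes tested. An exact two-sided permutation test gave p = 0.10 for each, which is the smallest p that 3 against 3 libraries allow (adjusted p = 0.10 over the 7 ratios). Pairing by mouse allows no p under 0.25.

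**Figure D2:**
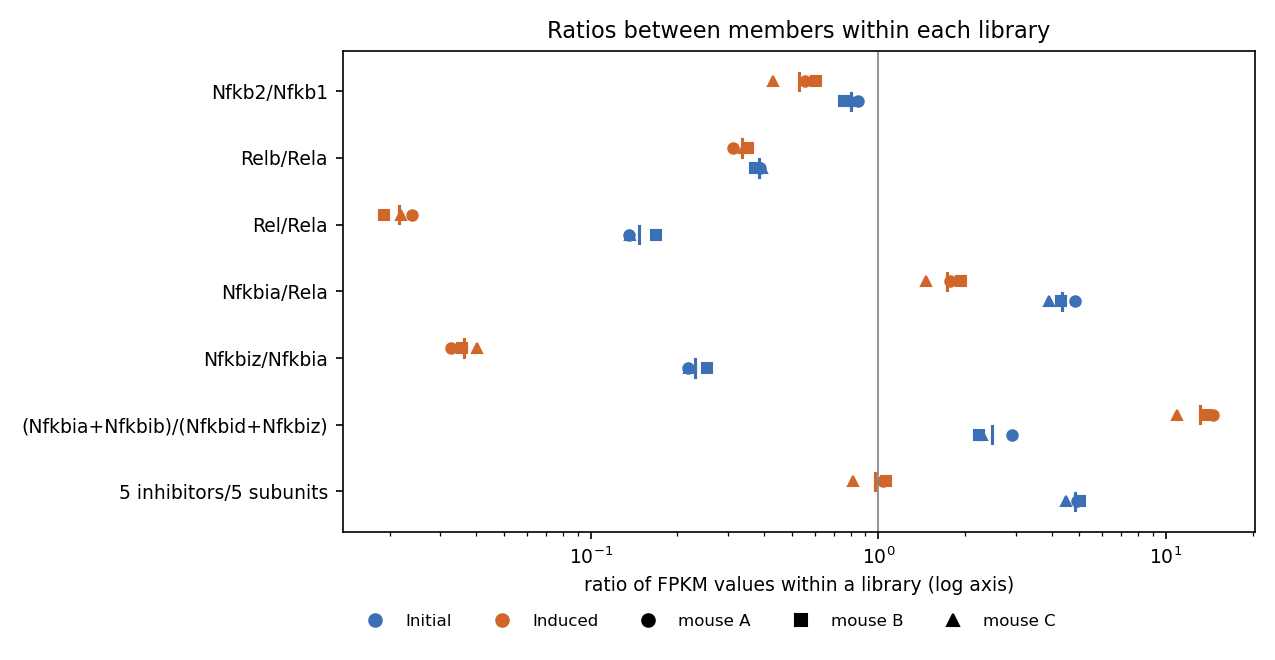
Ratios of FPKM between members within each library (log axis; a vertical line marks equal levels), with Initial libraries in blue, Induced libraries in orange, a marker shape for each mouse and a short line at the group mean. The inhibitor to subunit ratio moves from about 4.81 to 0.972, and the ratio of cytoplasmic to nuclear inhibitors moves the other way, from 2.48 to 13.1.

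The direction of the members with small changes depended on the scaling of the libraries. Scaling on the CD3 chains and Trdc moved the share of calls that were rises from 52.9 to 66.8%. Under it the median of all genes moved from 0.03 to 0.23, and Nfkb2 (LFC -0.17, adjusted p = 0.146) and Nfkbib (-0.09, adjusted p = 0.307) lost their calls. Scaling on 20 T cell identity genes moved the median to 0.89. There Nfkb2, Rela and Nfkbib were called higher, with LFCs of 0.55, 0.37 and 0.63, and Relb stood at 0.17 (adjusted p = 0.224). That list of T cell genes itself fell, with 12 of 20 lower and 2 higher, and 86.4% of all calls were then rises, against 52.9% as deposited. Rel, Nfkbia, Nfkbid, Nfkbiz and Tnfaip3 fell in all 17 alternatives run. Under the T cell identity scaling their LFCs were -1.97, -0.96, -2.57, -3.44 and -3.61.

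**Figure D3:**
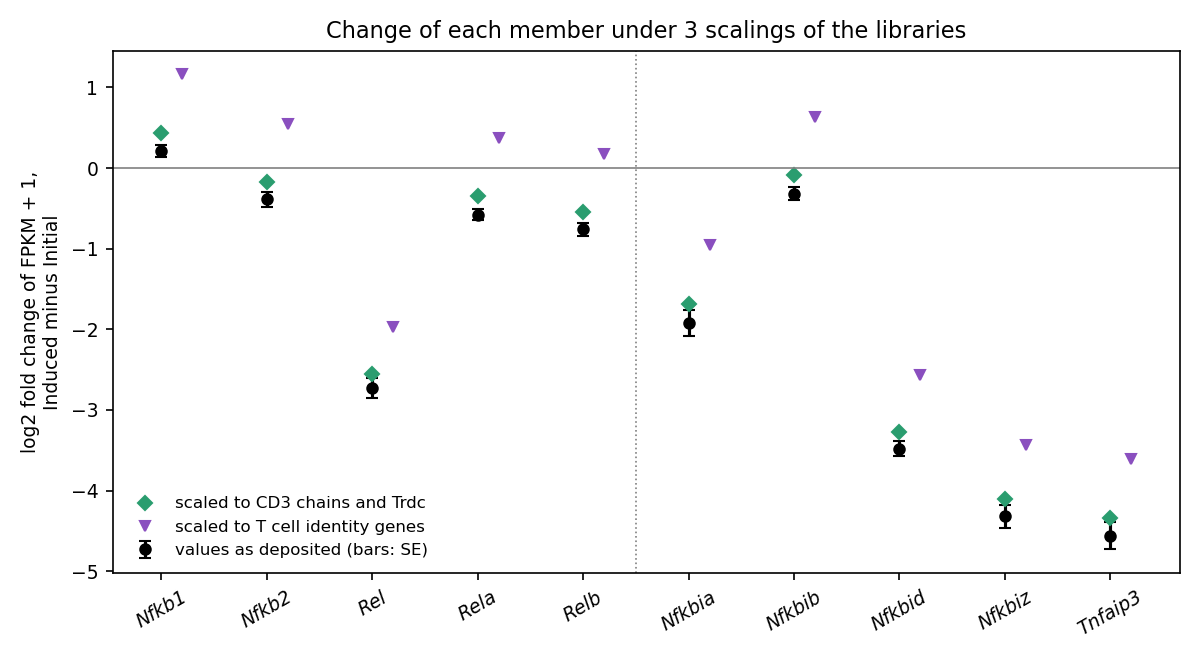
Log2 fold change of FPKM + 1 (Induced minus Initial) of each member with the values as deposited (black, bars show the SE) and after scaling on CD3 chains and Trdc (green) or on T cell identity genes (purple). Tnfaip3, Nfkbiz, Nfkbid, Rel and Nfkbia lie below 0 under all 3 scalings, while Nfkb2, Rela, Relb and Nfkbib cross 0.

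Markers of other cells moved with the groups. Sums are over all markers listed for a cell type, tested or not. All 10 tested of 11 B cell markers fell, with sums of 1700 to 1990 FPKM in Initial and 71.9 to 124 FPKM in Induced libraries, and all 10 macrophage markers fell, from 581 to 1110 FPKM down to 3.82 to 5.84 FPKM. The 6 tested red cell markers fell, and the sum went from 1220 to 1740 FPKM down to 1.17 to 1.63 FPKM. Alas2 and Klf1 had no row in the Induced tables and counted as 0. Of 3 tested NK cell markers 2 fell, and the sum went from 104 to 117 FPKM down to 19.1 to 77.5 FPKM. Eomes, the NK cell marker that did not pass, had 46.7 FPKM in Induced C, and Klra8 had no row after culture. Of 5 tested dendritic cell markers 3 fell and 1 rose, from 12.4 to 15.7 FPKM in all to 3.31 to 8.41 FPKM, and Clec9a had no row after culture. No neutrophil marker was abundant enough to test, with sums of 1.18 to 16.1 and 0.564 to 4.61 FPKM and no row for Retnlg after culture. All 11 immediate early genes, which respond within minutes to stimulation or handling, fell, from 5410 to 6400 FPKM down to 280 to 292 FPKM. The CD3 chains and Trdc, which mark γδ T cells, summed to 1560 to 1700 FPKM in Initial and 1380 to 1500 FPKM in Induced libraries, and 2 of these 5 fell. Of 8 γδT17 markers 6 rose and 1 fell, and the sum went from 61.9 to 73.8 FPKM up to 251 to 410 FPKM. The marker that fell was Ccr6, from 4.42 ± 0.394 to 0.792 ± 0.166 FPKM. Il17a, the gene of the cytokine that names these cells, had 15.3, 7.34 and 8.66 FPKM in the Initial and 17.5, 22.5 and 7.64 FPKM in the Induced libraries, which overlap (LFC 0.51, adjusted p = 0.325). It passed without Induced C, the Induced library with its lowest value (0.93, adjusted p = 0.0284). Over all genes tested, Induced C correlated at 0.9895 with Induced A and 0.9862 with Induced B, against 0.9955 between Induced A and B. The Initial libraries correlated with each other at 0.9894 to 0.9903. B cells, macrophages and stimulated cells also make several members, and the part of these cells and of handling in the falls of Rel and the inhibitors was not tested.

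The genes most like the leading members were sought among 6384 genes with a mean of at least 10 FPKM, by the Euclidean distance of centred log2(FPKM + 1) values over the 6 libraries. Nearest to Tnfaip3 were Dusp1 (distance 0.21), an immediate early phosphatase gene that went from 390 ± 58.4 to 15.5 ± 2.99 FPKM, Cd24a (0.38) and the immunoglobulin segment Igkv14-111 (0.42). Nearest to Nfkbiz were Cd5l (0.26), a macrophage gene that went from 21.3 ± 4.84 to 0.0235 ± 0.0229 FPKM (with no row in Induced A, counted as 0), Sirpa (0.32) and Hpgd (0.34). With 6 libraries in 2 groups, genes with a like group difference in log2(FPKM + 1) come first by this measure. On that scale values near 0 are compressed, so fold changes can differ widely between neighbours. The mean fell 24.3-fold for Nfkbiz and 905-fold for Cd5l. Igkv14-111 belongs to a family of near-identical segments, so its level is uncertain.

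Outside the members, 70 of 72 listed pathway genes were tested, of which 14 rose, 32 fell and 24 did not pass, so the share called, like that of most lists here, is to be read against the 70.4% called over all genes. After scaling on T cell identity genes the balance turned, to 43 higher and 15 lower. Their median LFC was -0.20, beside -3.48 for the inhibitor genes. Of the other IκB genes, Nfkbie, the gene of IκBε, went from 46.3 ± 2.88 to 22.8 ± 2.35 FPKM (LFC -1.0, SE 0.09, adjusted p = 3.1e-05). Bcl3, a nuclear IκB gene, had 25.1, 24.3 and 25.1 FPKM in Initial and 34.1, 38.9 and 25.1 FPKM in Induced libraries. It did not pass (LFC 0.36, adjusted p = 0.0537), but it passed in 4 alternatives: without Induced C (0.54, adjusted p = 6.0e-04), with the mouse as a replicate block (adjusted p = 0.0455), and after scaling on CD3 chains and Trdc (0.58) or on T cell identity genes (1.29).

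Of the 6 genes listed as IκB kinases or their regulators 3 fell and 1 rose. With the T cell identity scaling 1 was lower and 3 were higher. Ikbkb, the catalytic kinase of the classical path, went from 97.4 ± 1.52 to 48.2 ± 2.61 FPKM, and Map3k14, the kinase NIK that starts the alternative path, from 7.11 ± 0.221 to 3.00 ± 0.307 FPKM. Ikbke fell from 50.4 ± 2.41 to 17 ± 1.9 FPKM, while its relative Tbk1 rose from 24.1 ± 1.21 to 30.3 ± 0.905 FPKM. After scaling on T cell identity genes, Ikbkb (LFC -0.05, adjusted p = 0.660), Map3k14 (-0.23, adjusted p = 0.167) and Nfkbie (-0.06, adjusted p = 0.691) were no longer called.

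Of 12 adaptors of the interleukin-1 receptor 6 fell and 3 rose. The counts were 4 lower and 5 higher after scaling on CD3 chains and Trdc, and 2 lower and 8 higher after scaling on T cell identity genes. Traf6, the ubiquitin ligase of this path, fell from 16.7 ± 1.64 to 6.09 ± 0.399 FPKM, and the ligase gene Peli1 from 121 ± 9.88 to 44.3 ± 7.24 FPKM. Irak3, which encodes an inhibitory kinase-like protein of the path, rose. It had 4.05, 3.52 and 3.64 FPKM in Initial and 87.6, 92.7 and 31.3 FPKM in Induced libraries, with Induced C well below the other 2 (LFC 3.77, SE 0.41, adjusted p = 2.7e-04, and 4.27 without Induced C). Tab2 rose from 5.88 ± 0.460 to 15.0 ± 0.958 FPKM.

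Of 4 antigen receptor adaptors 3 fell and none rose, against 2 lower and 1 higher with the T cell identity scaling. Bcl10 went from 109 ± 5.99 to 38.2 ± 2.56 FPKM, Malt1 from 19.2 ± 1.78 to 6.42 ± 2.62 FPKM and the kinase gene Prkcq from 136 ± 6.53 to 60.0 ± 22.9 FPKM. The call of Prkcq was lost with the T cell identity scaling (adjusted p = 0.104). Of 11 TNF receptor adaptors 5 fell and 3 rose, against 2 lower and 7 higher with that scaling. The ubiquitin ligase gene Birc3 went from 59.7 ± 3.09 to 20.8 ± 0.839 FPKM and Traf5 from 27.6 ± 2.59 to 10.8 ± 0.174 FPKM. Ripk1, the kinase at the TNF receptor, rose from 18.7 ± 1.01 to 33.7 ± 1.0 FPKM and Rnf31, of the linear ubiquitin ligase, from 12.6 ± 0.636 to 17.2 ± 0.0411 FPKM.

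Of 11 partners of A20 and other negative regulators tested, 4 fell, 1 rose and 6 did not pass, with a median LFC of 0.07. The balance turned to 2 lower and 5 higher after scaling on CD3 chains and Trdc, and to 1 lower and 10 higher after scaling on T cell identity genes. Zc3h12a, the gene of the RNase Regnase-1, fell most, with 12.9, 11.3 and 10.3 FPKM in Initial and 1.47, 1.64 and 1.17 FPKM in Induced libraries (LFC -2.37, SE 0.12, adjusted p = 1.5e-06). The ligase gene Itch went from 28.5 ± 3.06 to 19.3 ± 1.47 FPKM, and was called higher with the T cell identity scaling. Tax1bp1, an adaptor of A20, went from 179 ± 7.35 to 203 ± 10.1 FPKM (adjusted p = 0.0418). That call was lost with 8 alternatives, with adjusted p-values up to 0.152.

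Of 24 known targets of NF-κB tested, 6 rose, 10 fell and 8 did not pass, a share called near that of all genes. With the T cell identity scaling 13 were higher and 7 lower. The lymphotoxin gene Lta rose from 10.4 ± 1.17 to 382 ± 97.0 FPKM and the interleukin-2 receptor gene Il2ra from 5.64 ± 0.555 to 74.5 ± 3.38 FPKM. Cd83 had 129, 134 and 116 FPKM in Initial and 4.86, 4.34 and 1.82 FPKM in Induced libraries (LFC -4.83, SE 0.27, adjusted p = 7.2e-06). Vcam1, which is also on the macrophage list, fell from 189 ± 59.1 to 0.144 ± 0.0195 FPKM. The targets on the list are also driven by other factors, and their levels do not measure NF-κB activity, which depends on proteins and their place in the cell.

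**Figure D4:**
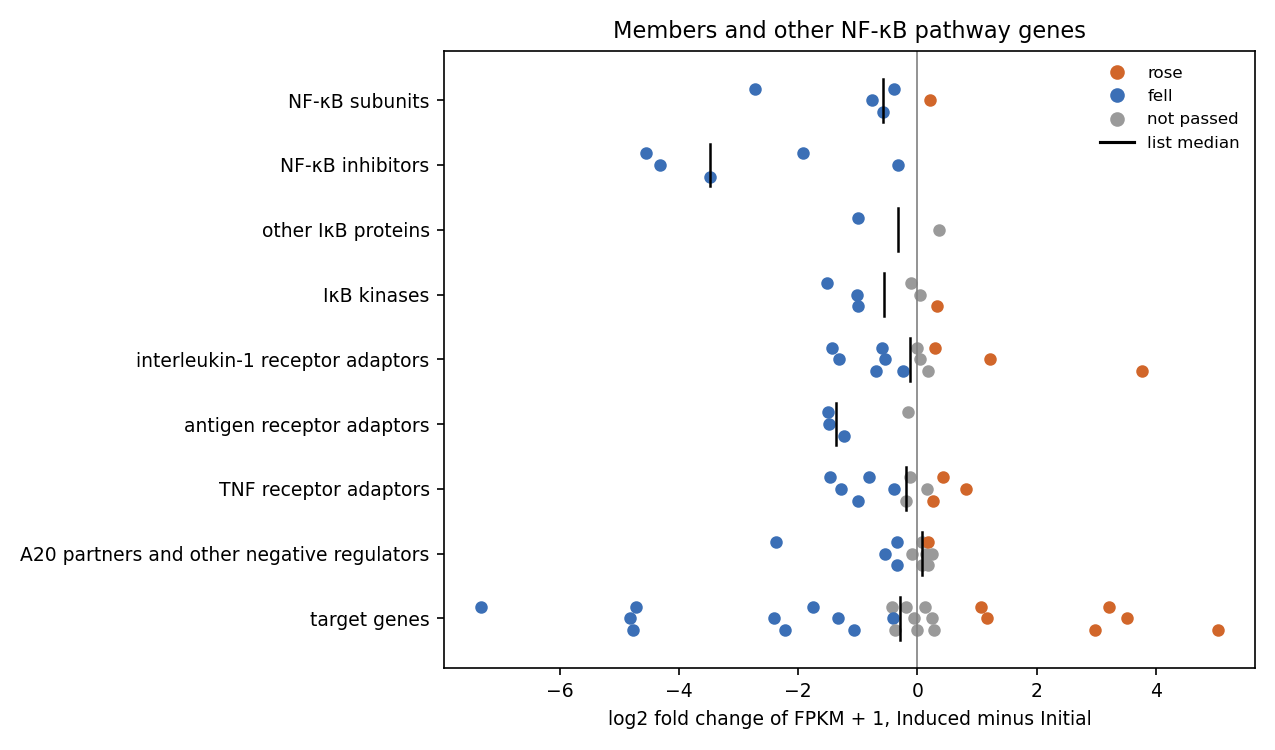
Log2 fold change of FPKM + 1 (Induced minus Initial) of each tested gene in the 2 classes of members and the 7 other pathway lists, coloured by call, with a black line at the list median. The medians of the other lists lie between -1.36 (antigen receptor adaptors) and 0.07 (negative regulators), above the -3.48 of the inhibitors.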

How the data were processed

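Messenger RNA was measured in 6 libraries. The deposited values are FPKM (fragments scaled by transcript length and library depth), made by the authors with Cuffdiff, per the labels' protocols. The submitters' processing notes name CASAVA, HISAT2 2.0.5, Cuffdiff 1.3.0 and 2.2.1, and mm9. However, 91.2% of gene identifiers lie, within 1 base, inside the files' loci by GENCODE M21 (GRCm38), so positions are GRCm38. No source used here says how strand was treated.

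No listed value is 0; a gene missing from a table counted as 0. Genes reaching FPKM 1 in 3 or more libraries were tested on log2(FPKM + 1) with limma 3.58.1 (R 4.3.3; trend, robust, two-sided, Benjamini-Hochberg over all genes, no block). The test was tested on simulated data. Percentiles are over the genes tested. Depth, read from steps in low values, is roughly 18300000 to 24300000 fragments per library. The estimate is rough, since 39.8 to 45.9% of those values lay within 0.15 of a whole number, where chance gives 30%. The lists, like the members, were chosen with earlier results of these data known. Beyond the members, the text names from each list the 2 largest rises and falls called, and the 3 genes nearest to each of the 2 members with the largest change. Bcl3, Ikbkb, Prkcq, Il17a and overlapping genes were added after their values were seen. The libraries of a mouse letter are labelled as from the same mouse. Deviations from group means correlated at 0.0393, 0.0307 and 0.1308 for A, B and C. Between Initial and Induced libraries of different letters the correlations ran from -0.1324 to 0.0988. Python 3.11.15, scipy 1.17.1 and matplotlib 3.10.9 were used.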

Additional observations from a re-analysis of the deposited data

How the results depend on the processing

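The 17 alternatives changed the pseudocount (0.1 or 5), the filter (none or FPKM 5), the scaling (5 ways), the test (mouse as a block, or no trend and robust shrinkage) or left out 1 library. After scaling on T cell identity genes, 8515 genes were called higher and 1342 lower. Among the members 4 were then higher and 5 lower, among the subunits 3 and 1, and among the inhibitors 1 was higher. Nfkb2 (0.55), Rela (0.37), Relb (0.17), Nfkbib (0.63) and Itch (0.39) reversed there on the log2 scale. Other pathway genes were called higher 43 times and lower 15 times, and higher 23 times after scaling on CD3 chains and Trdc. Both scalings raise all fold changes by construction. The only rise among members, Nfkb1, was lost with no filter and with quantile normalization (0 members and 0 subunits higher). It was kept in 1 of the 6 fits that left out a library (0 to 1 higher). The cause was not tested. With the replicate block, 4193 genes were called higher and 3750 lower, and no call of a member changed (Nfkb1 0.21, adjusted p = 0.0323). The 31 other genes named gave 527 values, of which 509 kept direction and call, 12 lost a call, 5 gained one and 1 reversed. No member's direction reversed when a library was left out, and no ratio reversed in any alternative run. Groups that do not overlap cannot reverse when 1 library is left out, so that outcome was fixed in advance. Scaling of libraries also cancels within a ratio. At this rough depth, the lowest member level (Rel, 1.42 FPKM) rested on about 237 fragments.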
